A study of Homo sapiens with 16 samples.

Results

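The regions described here are ChIP-seq peaks that lie beside the pericentromeric satellite blocks of chromosomes 1, 4, 10, 16 and 20. A peak was a member when it was at most 5000 bp long and its summit, the position of highest signal, fell in 1 of 6 spans of GRCh38. The spans were chromosome 1 from 143100000 to 143400000, chromosome 4 from 49000000 to 49700000, chromosome 10 from 41600000 to 42400000, chromosome 16 from 34400000 to 34800000 and again from 46300000 to 46500000, and chromosome 20 from 28500000 to 31200000. They cover 5.1 Mb in all, which is 0.167% of the chromosome length. The 12 peak lists placed 7732 members there out of 6172657 peaks on chromosomes 1 to 22, X and Y, which is 0.125% of the peaks. Neither a genome sequence nor a repeat annotation was used here, so the satellite label of the spans was not checked against their sequence.

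The lists come from T47D, an established luminal A breast cancer cell line that expresses the estrogen receptor. Cells carried lentiviral shRNA against DAB2IP (knockdown) or the empty vector (control) and were selected with puromycin, and all were fixed with disuccinimidyl glutarate and formaldehyde. Chromatin was precipitated with antibodies against RELA/p65, RELB or NFKB2, with 2 libraries for each antibody and condition, and an input was sequenced for each of the 4 combinations of condition and replicate number. The labels do not say whether replicates came from separate cultures, so the spread between them may be technical. Below, a preparation means the 3 libraries that have both condition and replicate number in common and so share an input.

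RELA, RELB and NFKB2 are subunits of NF-κB, a family of transcription factors that are kept in the cytoplasm by inhibitors and move to the nucleus on stimulation. RELA acts in the canonical pathway, while RELB and the processed form of NFKB2 act together in the noncanonical pathway. DAB2IP is a GTPase-activating protein for RAS that also restrains NF-κB signalling. Pericentromeric satellites are long arrays of short tandem repeats, and human satellites 2 and 3 are built on copies of the unit GGAAT. The reference genome holds only part of these arrays, and reads from the many copies in a cell can pile up on the few copies that a reference shows.

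The members' own sequences were not read here, and the sequences shown are those RefSeq promoter windows (GRCh38.p14, 300 bases, from 250 before to 50 after a start site) of the chromosome 1 span that members of 3 libraries overlapped. Capitals mark GGAAT or its reverse complement ATTCC, matches on either strand being counted. The first is chr1:143308907-143309206 on the minus strand, and the second is chr1:143326960-143327259 on the minus strand.
LOC101929814: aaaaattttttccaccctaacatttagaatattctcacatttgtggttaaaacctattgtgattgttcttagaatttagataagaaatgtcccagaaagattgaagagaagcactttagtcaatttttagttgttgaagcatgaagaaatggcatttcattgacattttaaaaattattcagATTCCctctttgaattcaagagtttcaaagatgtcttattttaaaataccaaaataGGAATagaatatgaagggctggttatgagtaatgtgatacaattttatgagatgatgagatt
LOC105371172: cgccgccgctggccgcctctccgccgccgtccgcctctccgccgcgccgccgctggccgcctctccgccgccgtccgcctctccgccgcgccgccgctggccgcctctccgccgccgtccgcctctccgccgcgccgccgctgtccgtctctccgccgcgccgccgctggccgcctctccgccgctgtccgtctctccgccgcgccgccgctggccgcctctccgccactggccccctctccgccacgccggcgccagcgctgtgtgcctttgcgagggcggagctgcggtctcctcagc
Both are start sites of long noncoding RNAs. The window of LOC101929814 held 2 matches and was met by members in 1 control RELA library, 1 knockdown NFKB2 library and 1 control NFKB2 library, with 2, 3 and 5 fragments at the summit. The window of LOC105371172, a run of CG-rich repeats, held no match and was met by members in the 3 libraries of knockdown replicate 2, with 1 fragment each. None of these members had a −log10 q above 0. Of the 19 promoter windows listed in the spans, 10 were met by a member and 6 held the 5-base unit, which 36.4% of all 35116 windows held. The share of all windows met by a peak was not counted, so the 10 are not shown to be many or few. The members at these windows had 1 to 7 fragments at the summit, none with a −log10 q above 0.

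Each list held between 75078 and 708764 peaks of at most 5000 bp. The lowest −log10 p of every list was 1.3, so the lists were cut at an unadjusted p of 0.05 and most entries are weak. The q-value, the p adjusted over the genome by the peak caller, was at most 0.05 for 44 to 203 peaks of a list, or 0.0156% to 0.105% of its peaks. In knockdown RELA replicate 1 and knockdown RELB replicate 1 the precipitated sample had been scaled down by factors of 0.91 and 0.983, as recovered from the fold and p of the peaks, and these lists were the shortest, with 105534 and 75078 peaks. Where conditions or antibodies are compared, values without them are given as well.

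Counting every listed peak, density in the spans was below that of the other chromosomes in 10 of the 12 libraries. Density is given relative to the rest of the same list, as peaks per Mb of span over peaks per Mb elsewhere, because lists differ in length. Over all 6 spans it ran from 0.672 in knockdown NFKB2 replicate 2 to 1.45 in knockdown RELB replicate 1, with a median of 0.74. Only the libraries with a scaled sample exceeded 1, at 1.27 for knockdown RELA replicate 1 and 1.45 for knockdown RELB replicate 1, and the other 10 lay between 0.672 and 0.819. The geometric mean over libraries was 0.814 (exact two-sided sign-flip test over 4 preparations on the log2 scale, p = 0.25, where the smallest possible p is 0.125).

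The values given block by block are geometric means over the 12 libraries as well. The chromosome 10 span was the sparsest, at 0.555 times the density of the rest (exact p = 0.25, adjusted over the 6 spans 0.375). Its 12 values ran from 0.362 to 1.53 with a median of 0.479. The chromosome 4 span followed at 0.642 (exact p = 0.125, adjusted 0.375), below 1 in all libraries but knockdown RELB replicate 1. The chromosome 16 short arm span had 0.774 (exact p = 0.25, adjusted 0.375) and the long arm span 0.874 (exact p = 0.375, adjusted 0.45). The chromosome 1 span had 0.892 (exact p = 0.625), with values from 0.548 to 3.12, the widest range of the 6. The chromosome 20 span, which alone held 4693 members or 60.7% of all, had 0.911 (exact p = 0.25, adjusted 0.375) and the narrowest range, from 0.742 to 1.35. None of the 6 departures from the rest of the list could pass 0.05 with 4 preparations. The direction turned when weak peaks were left out: with the 20000 smallest p-values of each list all 6 spans were denser than the rest, by 3.25 on chromosome 1, 0.45 on chromosome 4, 0.24 on chromosome 10, 2.09 and 2.65 on the chromosome 16 short and long arms and 0.86 on chromosome 20 (log2). A fixed number is a milder cut in the shortest list, with 75078 peaks, than in the longest, with 708764.

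**Figure D1:**
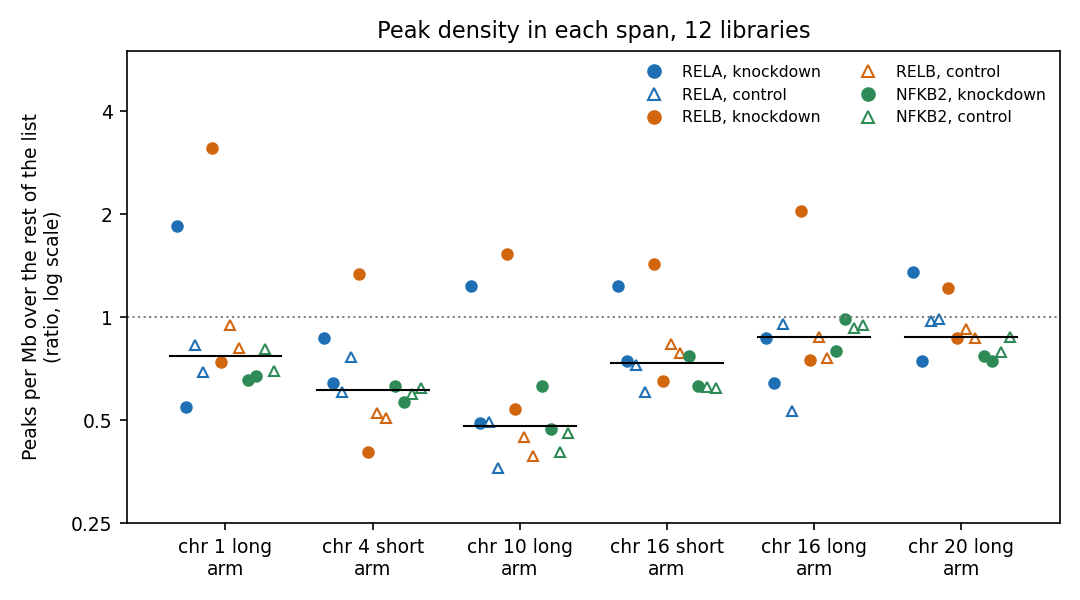
Peak density in each span relative to the rest of the same list (vertical axis, a ratio on a log scale) for 12 libraries. Filled circles are knockdown, open triangles control, colours the antibody, and black lines the median of the 12; the libraries that sit highest in the chromosome 1 span are knockdown RELB replicate 1 at 3.12 and knockdown RELA replicate 1 at 1.84.

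The members were not spread evenly along the spans. The first 85.2 kb of the chromosome 1 span, 95 kb of the chromosome 10 span and 80.9 kb of the chromosome 16 long arm span held no summit in any library. Inside the chromosome 4 and chromosome 10 spans, stretches of 150.6 and 152.0 kb had none. In 10 kb bins, 36 of the 80 bins of the chromosome 10 span were empty, against 25 of 270 on chromosome 20. When only bins that hold a summit in some library count as length, the chromosome 16 long arm span was denser than the rest by 0.44 on the log2 scale (exact p = 0.125) and the chromosome 1 span by 0.18 (exact p = 0.75).

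Peaks beside some of the empty stretches differed in kind from those farther out. The number of fragments at a summit and the local background, the number the peak caller took as the chance level there, were recovered from the deposited fold and p. On the chromosome 16 short arm, all 132 members with more than 20 fragments fell in 3 neighbouring bins from 170 kb, and on the long arm all 110 fell in 3 bins from 80 kb. On chromosome 1 the 236 such members fell in 9 neighbouring bins from 80 kb. The chromosome 10 span held 64, of which 60 were in 3 bins from 460 kb. The chromosome 4 span held 10 of its 850 members and the chromosome 20 span 19 of its 4693.

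**Figure D2:**
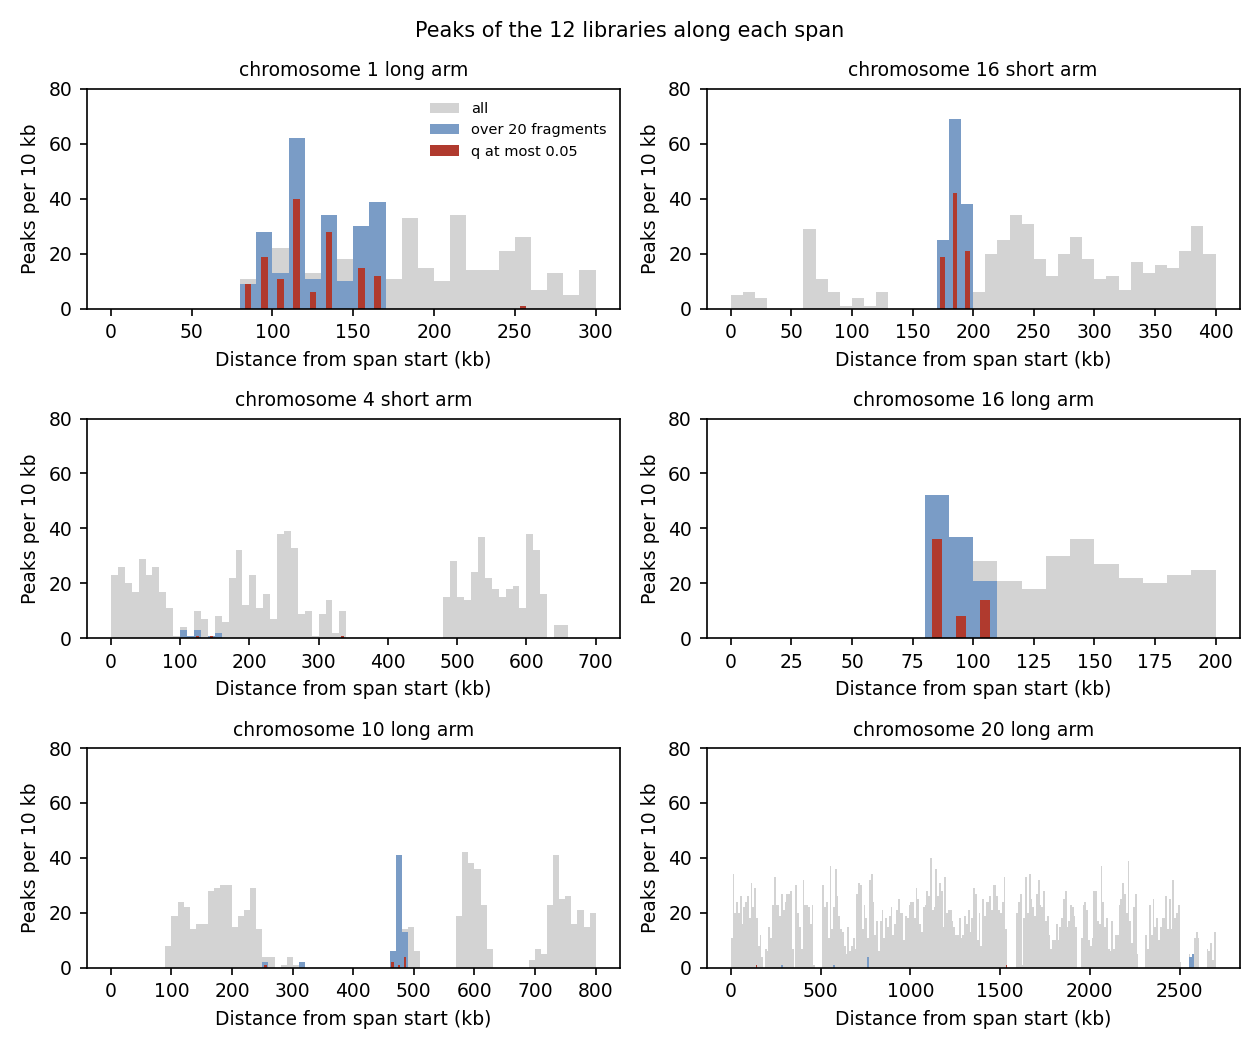
Members of the 12 libraries per 10 kb (vertical axis, number) by distance from the start of each span (horizontal axis, kb). Grey bars are all members, blue bars those with more than 20 fragments at the summit and red bars those with a q of at most 0.05; blue and red bars stand together at the edge of the empty stretch on chromosomes 1 and 16 and are nearly missing on chromosomes 4 and 20.

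In a typical library 48.7% of the chromosome 1 members had more than 20 fragments and 36% had 3 or fewer, so few lay between. The median share over 20 fragments was 34.5% on the chromosome 16 long arm, 22.1% on its short arm, 6.41% on chromosome 10, 0.55% on chromosome 4 and 0.221% on chromosome 20, against 0.00988% in the rest of the lists. The ratios that follow in this paragraph are geometric means over libraries. The median local background of the chromosome 1 members was 7.57 times that of the rest of the list (exact p = 0.125, higher in 10 of 12 libraries). For chromosome 20 it was 1.8 times and for chromosome 10 1.58 times (exact p = 0.125 each, higher in 12 of 12), and for chromosome 4 it was 1.02 times (exact p = 1). For the chromosome 16 short arm it was 1.73 times (exact p = 0.125, higher in 12 of 12). For the long arm it was 2.08 times, but higher in only 6 of 12 libraries (exact p = 0.375). Over all spans the background was 1.68 times and the fragments 1.38 times those of the rest, while the fold was 0.966 times (exact p = 0.125 each). The fold was above that of the rest in knockdown RELA replicate 2, equal to it at 3 digits in knockdown NFKB2 replicate 2, and below it in the other 10.

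Peaks that passed multiple testing were concentrated in 3 of the spans. Over all lists 0.0249% of peaks had a q of at most 0.05, and 296 of the 7732 members did, or 3.83%, against 1244 peaks or 0.0202% in the rest. The chromosome 1 span held 141 of them, 29.7% of its members, the chromosome 16 short arm span 82 (14.2%) and the long arm span 58 (17.1%). The other spans held few, with 8 on chromosome 10, 3 on chromosome 4 and 4 among the 4693 members of chromosome 20. In every library each of the 3 leading spans had at least 2 such peaks. Of each list's peaks with a q of at most 0.05, a median of 20% lay in the spans, from 17 of 184 in control RELA replicate 2 to 36 of 113 in knockdown RELA replicate 2.

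The odds of a q of at most 0.05 over the rest of the list were higher by 7.58 on the log2 scale for all spans together (exact sign-flip test over 4 preparations, p = 0.125, the smallest possible). They were higher by 10.97 for chromosome 1, 10.07 for the chromosome 16 long arm and 9.73 for its short arm, in 12 of 12 libraries each (exact p = 0.125, adjusted 0.125). The spans were chosen with earlier results of these lists in view, so these odds describe the spans and are no independent evidence.

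**Figure D3:**
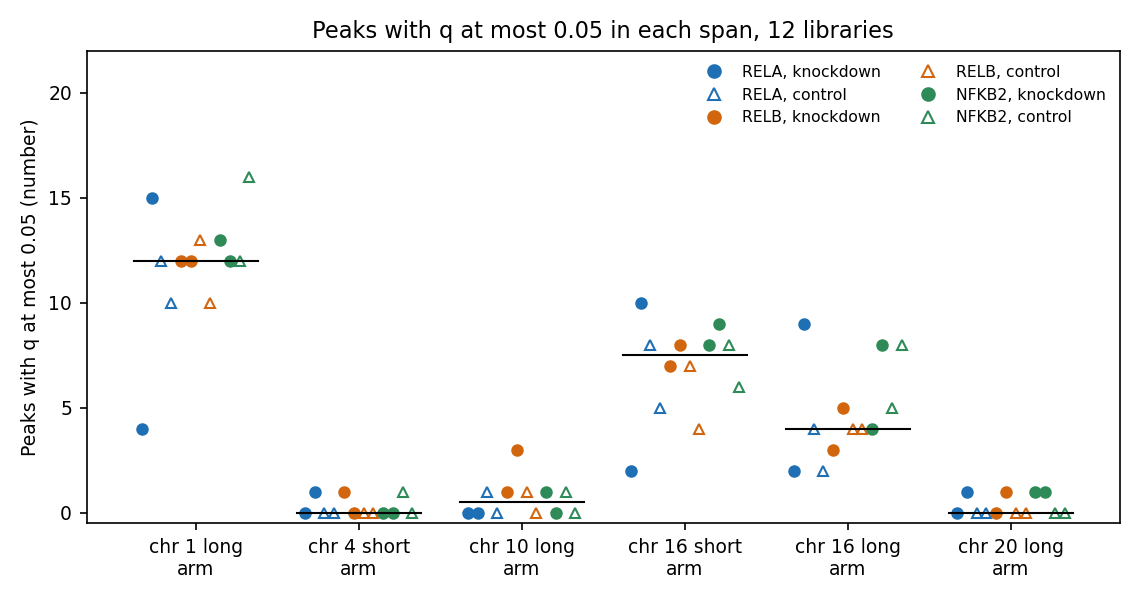
Number of peaks with a q of at most 0.05 in each span (vertical axis) for 12 libraries; symbols as in the plot of relative density, black lines the median. The chromosome 1 span had 4 to 16 in each library, the chromosome 16 spans 2 to 10, and the chromosome 4, 10 and 20 spans 0 to 3.

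The chromosome 1 span had 4 and 15 such peaks in the knockdown RELA libraries and 12 and 10 in the control RELA libraries. With the RELB antibody it had 12 and 12 in knockdown and 13 and 10 in control. With the NFKB2 antibody it had 13 and 12 in knockdown and 12 and 16 in control. Knockdown and control overlapped for all 3 antibodies, and the lowest count came from knockdown RELA replicate 1, a library with a scaled sample and only 44 such peaks in its whole list. On the chromosome 16 short arm the counts were 2 and 10 against 8 and 5 for RELA, 7 and 8 against 7 and 4 for RELB, and 8 and 9 against 8 and 6 for NFKB2, knockdown first. On the long arm they were 2 and 9 against 4 and 2, 3 and 5 against 4 and 4, and 4 and 8 against 5 and 8. In the short arm span the NFKB2 values met at 8 and the RELB values at 7, so no antibody separated the conditions there either.

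These peaks had many fragments on a high background and a low fold. Their median fold was 2.29 on chromosome 1, 2.21 on the chromosome 16 short arm and 1.92 on the long arm, against 5.13 for peaks with a q of at most 0.05 in the rest of the lists. Their median number of fragments was 129, 194 and 234.5 in the same order, against 9 in the rest. The median local background was 54.7, 84.3 and 118.5 fragments, against 0.751. The member with the highest −log10 q lay in the chromosome 1 span in 6 libraries, on the chromosome 16 short arm in 5 and on the long arm in 1, and it ranked 2 to 9 by q among all peaks of its list. The 4 such peaks of chromosome 20 were of the other kind, with a median of 13.5 fragments, a background of 1.91 and a fold of 4.44. The highest number of fragments at any member ran from 268 to 288 over the 12 libraries, and the highest in the rest of each list from 267 to 294.

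Of the 8 chromosome 1 regions called in all 12 libraries, 2 had a q of at most 0.05 in each, at 143212900 to 143213306 and at 143214351 to 143214930. The second had the higher median −log10 q, 17.7 against 15.9, and is described here. It lay outside any annotated gene. Its summits fell within 9 bp of each other. In the knockdown RELA libraries it had 256 and 240 fragments on backgrounds of 148 and 77.9, and in the control RELA libraries 257 and 261 on 129.2 and 127.6. In the knockdown RELB libraries it had 252 and 251 fragments on 149 and 135.5, and in the control RELB libraries 260 and 260 on 125.8 and 113.6. In the knockdown NFKB2 libraries it had 267 and 253 fragments on 142.1 and 105, and in the control NFKB2 libraries 262 and 260 on 106.1 and 97.6. The fragments lay between 240 and 267, close to the highest count of each list outside the spans, which was 267 to 294. Whether the counts were limited at the top, for example by the handling of repeated reads, is not given in the sources used here and was not tested, so like counts do not show like signal between antibodies or conditions. The fold was highest, at 3.06, and the −log10 q at 41.2, in knockdown RELA replicate 2, which had both the fewest fragments and the lowest background. The fold was lowest, at 1.57 with a −log10 q of 3.31, in knockdown RELA replicate 1.

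Each chromosome 16 span had 3 regions called in all 12 libraries, and the one with the highest median −log10 q is described. On the short arm, with a median of 17.9, it lay at 34576398 to 34576641, with summits within 13 bp, 174 to 229 fragments on backgrounds of 57.2 to 110.2 and a −log10 q from 9.97 to 27.9. On the long arm, with a median of 18.3, it lay at 46386301 to 46386632, with summits within 15 bp, 213 to 251 fragments on backgrounds of 63 to 121.8 and a −log10 q from 9.86 to 41.8. At both, knockdown RELA replicate 2 had the fewest fragments, the lowest background and the highest fold, at 3.01 and 3.34. Neither overlapped an annotated gene.

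**Figure D4:**
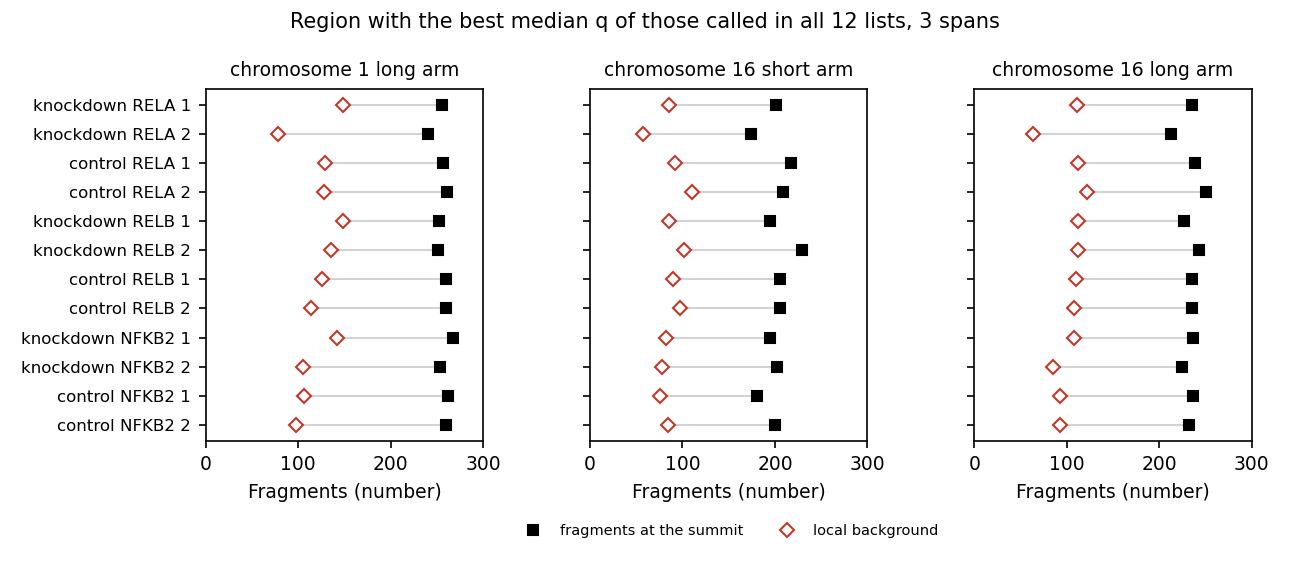
Fragments at the summit (black squares) and local background (open red diamonds) in fragments (horizontal axis, from 0) at the region with the highest median −log10 q among those called in all 12 libraries, for the chromosome 1, chromosome 16 short arm and chromosome 16 long arm spans, for each library by antibody and replicate number. The squares of the chromosome 1 region lie between 240 and 267 and the diamonds between 77.9 and 149; the fold is close to the ratio of square to diamond.

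Over the 14 regions of the spans that all 12 libraries called, the fragments varied between libraries with a median coefficient of variation of 8.79%, and the background with one of 16.9%. The background varied by more than the fragments at 13 of the 14, the exception being chromosome 1, 143192778 to 143193203, where the fragments had 29% and the background 19.5%. The counts may have been limited at the top, as said above, so the smaller variation of the fragments is a description of the recovered values and not of binding. At 7 of the 14 the SD of the fragments over the 12 libraries was below the square root of their mean, the spread that counting alone would give. At the chromosome 1 region described above the mean was 256.6 fragments with an SD of 6.96, against a square root of 16. Across libraries the log fold and the log background were correlated with a median r of −0.854 over the 14 regions, from −0.979 to 0.00947 (n = 12 libraries each, which share inputs within a preparation). The fold is the fragments over the background by construction, so this is a description of which term varied. Outside the spans the median background was lowest, at 0.576, in knockdown RELA replicate 2 and highest, at 1.07, in control RELA replicate 2, so a low background at these regions went with a low background of the whole list in that library. The part of depth in the fold and q of these regions was not tested.

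In the other spans the most widely called regions were weak. On chromosome 10 it was 42079579 to 42079931, called in 11 libraries with 98 to 151 fragments, backgrounds of 69.9 to 109.1 and a fold of only 1.16 to 1.51. On chromosome 4 it was 49268562 to 49269019, called in 9 libraries with 6 to 14 fragments, and on chromosome 20 28536715 to 28537227, called in 10 libraries, as was 29276549 to 29278061, with 3 to 7 fragments in the former. None of the calls described had a q of at most 0.05, and their summits were spread over 181, 181 and 304 bp.

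Recurrence over libraries was read from merged regions, peaks of any library that overlap by at least 1 bp being joined. The members formed 3783 regions, of which 44.8% (95% exact binomial interval 43.2 to 46.4, for counting error only) were called in 2 or more libraries, against 39.7% of all merged regions on the chromosomes. Of the 129 regions of the chromosome 1 span, 61.2% were called in 2 or more. The other spans lay between 39.6% on the chromosome 16 long arm and 45.5% on chromosome 20, the former no higher than all chromosomes. At 6 or more libraries the share was 21.7% on chromosome 1, 8.72% and 6.14% on the chromosome 16 long and short arms, 3.95% on chromosome 10, 3.43% on chromosome 20 and 2.17% on chromosome 4, against 1.50% of all regions. The spans held 14 of the 52 regions called in all 12 libraries, 8 on chromosome 1 and 3 on each arm of chromosome 16, or 0.37% of their regions against 0.00147% of all. Of the 14, 13 had a q of at most 0.05 in some library and 5 in every library. With an overlap of at least 0.5 of both peaks required, 21.2% were called in 2 or more libraries. The share over all chromosomes was not counted for that rule.

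**Figure D5:**
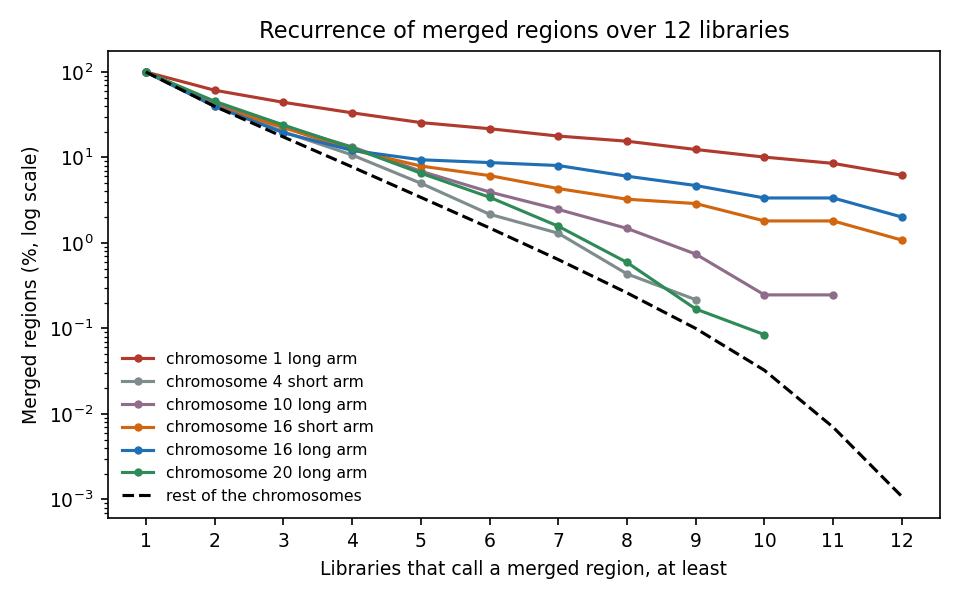
Share of merged regions (vertical axis, %, log scale) called in at least the number of libraries on the horizontal axis, for each span (coloured lines with points) and for the rest of the chromosomes (dashed line). All lines start at 100% at 1 library; at 12 libraries the chromosome 1 span stands at 6.2%, the chromosome 16 long and short arm spans at 2.01% and 1.08%, and the rest at 0.00108%.

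Among pairs of libraries, those of 1 preparation had the highest average share of regions in common. The Jaccard index, the merged regions called in both over those called in either, averaged 9.55% over the 12 pairs of libraries of 1 preparation. It averaged 6.33% over the 6 pairs of replicates of a group, 6% over the 12 pairs with the same antibody in the other condition and 6.2% over the remaining 36. On chromosome 1 all 4 averages were higher, at 34.4%, 31.4%, 26.4% and 28.4% in that order, and the ranges overlapped. Pairs share libraries and list length moves the index, so no test was made.

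Knockdown and control libraries overlapped in the density of members for every antibody. For RELA the relative densities over all spans were 1.27 and 0.674 in knockdown and 0.819 and 0.794 in control. The arithmetic means were 0.972 ± 0.421 against 0.806 ± 0.0177 (SD, n = 2 each). The log2 ratio, here and below that of geometric means, was 0.20 (exact permutation test, p = 1). For RELB they were 1.45 and 0.722 in knockdown and 0.787 and 0.732 in control, a log2 ratio of 0.43 (exact permutation test, p = 1). For NFKB2 they were 0.724 and 0.672 in knockdown and 0.696 and 0.748 in control, a log2 ratio of −0.05 (exact permutation test, p = 0.667). Each comparison of 2 against 2 libraries cannot give a p below 0.33. The RELA and RELB ratios rest on the libraries with a scaled sample: without them the ratios turned to −0.26 and −0.07, and without knockdown replicate 2 they were 0.65 and 0.93. Taking each preparation as the unit, the log2 ratio was 0.19 (exact permutation test, 2 against 2, p = 1).

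Span by span, knockdown and control did not overlap in 6 of 18 combinations of span and antibody, 4 higher and 2 lower in knockdown. In 0.5 Mb windows of the rest of the chromosomes 31.0% of combinations of window and antibody did not overlap, so the count of 6 in 18 is near the background. Knockdown was higher on chromosome 10 for RELB by 1.12 and for NFKB2 by 0.34 on the log2 scale, and on the chromosome 16 short arm for RELA by 0.53 and for NFKB2 by 0.16. It was lower for NFKB2 on chromosome 1, with a log2 ratio of −0.17, and on chromosome 20, with −0.14 (exact permutation p = 0.333 for each of the 6). Without the library with a scaled sample the chromosome 10 value of RELB was 0.37 and the chromosome 16 short arm value of RELA 0.17. With all libraries kept, no span had knockdown apart from control for all 3 antibodies. Without the libraries with a scaled sample, knockdown lay below control for all 3 antibodies on chromosomes 1 and 20. The log2 ratios of RELA, RELB and NFKB2 were then −0.46, −0.26 and −0.17 on chromosome 1. On chromosome 20 they were −0.40, −0.05 and −0.14. RELB also turned lower on chromosome 4 and in both chromosome 16 spans. RELA and RELB then had a single knockdown library each, so groups part more easily. The share of windows elsewhere in which these fewer libraries part was not counted. These separations are therefore not shown to be more common in the spans than elsewhere.

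The counts of regions called in 1 condition only were small against the 1809 to 2368 regions of an antibody. For RELA, 14 regions (0.719%, background 0.566%) were called in both knockdown and neither control library, and 86 (4.42%, background 2.44%) the other way round. For RELB the counts were 20 (1.11%, background 0.347%) and 67 (3.70%, background 2.96%). For NFKB2 they were 64 (2.70%, background 2.09%) and 77 (3.25%, background 2.93%). The RELA and RELB knockdown counts need a call in a short list, and without the libraries with a scaled sample, when 1 knockdown call sufficed, they were 565 (31.1%, background 36.2%) and 476 (27.7%, background 30.3%), both shares below the background. All 4 libraries of the RELA antibody called 21 regions of the spans (1.08%, background 0.0347%). The RELB libraries jointly called 23 (1.27%, background 0.0274%) and the NFKB2 libraries 38 (1.60%, background 0.308%), and without the scaled samples the RELA count was 55 (3.03%, background 0.714%) and the RELB count 57 (3.32%, background 0.747%).

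The knockdown-only region with the best q for RELA lay on chromosome 1, 143219759 to 143220434, had 90 to 120 fragments and a −log10 q of 2.33 and 6.9 and was overlapped by calls in 7 of the 12 libraries. That of RELB lay on chromosome 1, 143185131 to 143185300, reached a −log10 q of 13 and 13.4 and was overlapped in 9 libraries. That of NFKB2 lay on the chromosome 16 short arm, 34573978 to 34574144, reached 19 and 23.4 on the same scale and was overlapped in 7 libraries. The control-only regions with the best q were all on chromosome 1, at 143239467 to 143239865 (RELA), 143219644 to 143220404 (RELB) and 143261904 to 143262384 (NFKB2), and were overlapped in 4, 7 and 10 libraries. The RELB control-only region covered nearly the same bases as the RELA knockdown-only region, so at this place the calls of these antibodies went in opposite directions. The RELB calls had 85 to 105 fragments and a −log10 q of 0.54 and 3.07. The fragments there in libraries without a call were not read, so the presence or absence of a call shows no opposite binding. Over all antibodies, 6 regions of the spans were called in at least 4 knockdown and no control library (background 0.102%) and 33 in at least 4 control and no knockdown library (background 0.486%).

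At the 14 regions that all libraries called, the log2 of a library's median fold was higher in knockdown by 0.27 for RELA (exact permutation p = 1), by 0.06 for RELB (p = 0.667) and by 0.07 for NFKB2 (exact p = 1). The median fold over these regions was 1.65 and 2.51 in the knockdown RELA libraries and 1.72 and 1.67 in the control RELA libraries. It was 1.91 and 1.95 against 1.93 and 1.79 for RELB, and 2 and 2.28 against 2 and 2.05 for NFKB2. Knockdown minus control, the log2 odds of a q of at most 0.05 differed by 1.00 with the RELA antibody, 0.39 with RELB and 0.10 with NFKB2 (exact permutation p = 0.667, 0.333 and 1). Without the libraries with a scaled sample the fold difference was 0.57 with RELA and 0.07 with RELB, and the odds difference 1.98 and 0.13, each with a single knockdown library left.

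Over the spans as a whole the ranges of the 3 antibodies overlapped. NFKB2 had a mean log2 relative density of −0.49 ± 0.07, RELA one of −0.21 ± 0.39 and RELB one of −0.18 ± 0.48 (SD, n = 4), a range of 0.31 (exact permutation of antibody names within preparations, 1296 orderings, one-sided p = 0.153). The range fell to 0.11 without the preparation of knockdown replicate 1, which holds both scaled samples (exact p = 0.361), and the SDs became 0.08, 0.15 and 0.07 in the same order (n = 3). By span, in geometric means, the lowest p was on the chromosome 16 short arm, where NFKB2 had 0.659 times the density of the rest, RELA 0.796 and RELB 0.883 (exact p = 0.0417, adjusted over the 6 spans 0.241). On chromosome 1 the values were 0.704 for NFKB2, 0.871 for RELA and 1.16 for RELB (exact p = 0.0833, adjusted 0.241). Without that preparation the chromosome 16 short arm values were 0.626, 0.688 and 0.753 in the same order (exact p = 0.194) and the chromosome 1 values 0.721, 0.679 and 0.83 (exact p = 0.0833), so NFKB2 and RELA changed places on chromosome 1. The lowest p was then on chromosome 4, where NFKB2 had 0.593, RELA 0.667 and RELB 0.475 (exact p = 0.0278, adjusted 0.167). The fold at the 14 common regions had a range of 0.16 over antibodies on the log2 scale (exact permutation p = 0.301), and the odds of a q of at most 0.05 one of 0.93 (exact permutation p = 0.19), which were 0.16 (exact p = 0.444) and 1.18 (exact p = 0.222) without that preparation.

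Members were slightly longer than peaks elsewhere. The median length over all spans ran from 182 bp in knockdown RELB replicate 1 to 211 bp in control NFKB2 replicate 2, against 162 to 195 bp in the rest of the lists. The median exceeded that of the same list's rest in 12 of 12 libraries, by 14.9 bp on average (exact sign-flip test over 4 preparations, p = 0.125). By span the mean difference was 31 bp on the chromosome 16 long arm, 19.7 bp on chromosome 20, 19.6 bp on chromosome 10 (exact p = 0.125 each, adjusted 0.25), 10.1 bp on chromosome 1 (exact p = 0.875), 0.0417 bp on the chromosome 16 short arm (exact p = 1) and −4.46 bp on chromosome 4 (exact p = 0.375). The direction turned among the strongest peaks, where members with a q of at most 0.05 were shorter than such peaks elsewhere, with a mean difference of −27.29 bp (exact p = 0.125). Members over 1000 bp numbered 8 on the chromosome 16 long arm, 4 on chromosome 20, 2 on chromosome 1 and 1 on chromosome 10.

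The members that passed multiple testing lay almost all outside annotated genes. Of the 296, 1 lay in a gene, the pseudogene LOC100996736 of chromosome 1. The share of all members that lay in genes was not counted, so this is not shown to be a trait of strong peaks. The only gene of the chromosome 16 long arm span, ANKRD26P1, held 70 of its 339 members. The only gene of the short arm span held 0 of its 577 members. In the chromosome 1 span the members that passed lay at a median of 117.4 kb from its start, and the first annotated gene starts at 143299518. On chromosome 16 those that passed lay 174.1 to 195.5 kb into the short arm span and 80.9 to 101.4 kb into the long arm span, where no gene is annotated. The RefSeq table lists 54 genes in the chromosome 20 span, 41 of them pseudogenes, 14 in the chromosome 4 span, 6 in the chromosome 10 span, 5 in the chromosome 1 span and 1 in each chromosome 16 span. Protein-coding genes were CWH43 on chromosome 4, whose yeast counterpart remodels the lipid of membrane anchors, and LOC124904970 on chromosome 20. CWH43 held 146 members in all 12 libraries over the 62.1 kb of it inside the span, from 2 in each library with a scaled sample to 23 in knockdown RELA replicate 2, none with a −log10 q above 0. LOC124904970 held 3 members in 3 libraries. The median over libraries was 181.6 peaks per Mb in the rest of the list. The counts in these genes were not compared with that density, so they are not shown to be many or few.

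At the edges of the spans, where the rule decides membership, 13 summits lay within 10 kb outside the chromosome 1 span and 14 within 10 kb inside it. The counts were 25 and 23 for chromosome 4, 41 and 20 for chromosome 10, 38 and 25 for the chromosome 16 short arm, 31 and 25 for its long arm and 12 and 24 for chromosome 20. At the length limit the longest member had 3984 bp and the shortest interval left out 5.49 kb.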

How the data were processed

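ChIP-seq of RELA/p65, RELB and NFKB2 in T47D cells was analysed from 12 peak lists. According to the submitters' processing notes, reads were aligned to hg38 with BWA 0.7.12 and peaks called with MACS2 2.1.0. The authors deposited for each peak a position, a score, a fold over local background (a ratio), a −log10 p and a −log10 q. The deposited score was not tested. Peaks on chromosomes 1 to 22, X and Y were used, and 563 repeated entries of an interval were counted once. Fragments and background were recovered from the fold, with its pseudocount of 1, and the Poisson p-value. Recovered fragments were whole within 0.01 of the −log10 p for 100% of peaks of each list. In the lists with a scaled sample the factor was itself chosen for this fit. Recovery was tested on data simulated with the same formulas. Depth of the libraries was seen only through this background. Tests were exact permutations over libraries or over the 4 preparations, Benjamini-Hochberg adjusted over the 6 spans, in Python 3.11.15 with scipy 1.17.1. The spans, lists and tests were chosen with earlier results of these data known. Regions were named by rule: the most widely called of each span (ties broken by the highest median −log10 q), the best condition-only region of each antibody by q, the member with the best q in each library, and protein-coding genes overlapping a span. The tests of odds, background, fragments and fold, and leaving out the libraries with a scaled sample, were chosen after the data were seen. Intervals over 5000 bp were left out, and input libraries entered only through the peak calling.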

Additional observations from a re-analysis of the deposited data

Results flagged for a closer look

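Intervals over 5000 bp with the summit in a span, which the length limit left out, were listed in 2 of the 12 libraries. Knockdown RELA replicate 2 listed 9, from 5.69 to 34.8 kb long, and knockdown NFKB2 replicate 2 listed 10, from 5.49 to 33.1 kb long. Over all chromosomes these libraries listed 1332 and 1361 such intervals, of which 0.676% and 0.735% lay in the spans, and the other 10 libraries listed none. They were listed here because they lie outside the comparisons made and no control library had one. The highest number of fragments at the summit of these intervals was 3 in each library, so they are wide and shallow and not a strong signal. Both libraries belong to 1 preparation, and they had the lowest median backgrounds in the rest of their lists, 0.576 and 0.719 fragments, whose part in the long intervals was not tested.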

How the results depend on the processing

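Density depended on which peaks were counted. With the 20000 smallest p-values of each list, the log2 density over the rest turned positive in all 6 spans, to 3.25 on chromosome 1, 0.45 on chromosome 4, 0.24 on chromosome 10, 2.09 and 2.65 on the chromosome 16 short and long arms and 0.86 on chromosome 20. With a q of at most 0.05 it was 10.24, 8.998 and 9.447 on chromosome 1 and the chromosome 16 short and long arms, and the other spans gave no value because some libraries had no such peak. With empty bins left out as length it turned to 0.18 on chromosome 1 and 0.44 on the chromosome 16 long arm. With each library as a unit the values were the same and the exact p fell to 0.00195 on chromosome 4 (−0.64), 0.00293 on chromosome 10 (−0.85) and 0.0132 on the chromosome 16 short arm (−0.37), and to 0.000488 for the length difference of 14.88 bp, but the 3 libraries of a preparation share an input. The length difference turned to −12.83 bp with the 20000 smallest p-values and −27.29 bp with a q of at most 0.05. Leaving out each library, the density ranges were −0.29 to −0.01 on chromosome 1, −0.71 to −0.58 on chromosome 4, −0.92 to −0.76 on chromosome 10, −0.42 to −0.30 and −0.30 to −0.13 on the chromosome 16 short and long arms and −0.17 to −0.07 on chromosome 20. The cause of these shifts was not tested.

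The log2 ratio of knockdown over control turned to −0.76 for RELA and −0.98 for RELB in plain peaks per Mb, to −0.0762 for RELA with the 20000 smallest p-values and to 0.0465 for NFKB2 with a q of at most 0.05. Without both libraries with a scaled sample it was −0.26 for RELA and −0.0712 for RELB. Leaving out each library, the RELA ratio ran from −0.26 to 0.65, the RELB ratio from −0.0712 to 0.93 and the NFKB2 ratio from −0.10 to 0.0057. The range over antibodies was 0.67 in plain peaks per Mb (exact p = 0.0185, past 0.05 only on this scale, which list length moves) and 0.11 to 0.43 with each preparation left out; the length difference then ran from 13.5 to 15.44 bp. With the replicate number as a block the ratios stayed at 0.20, 0.43 and −0.05, each with an exact p of 1, and no call changed. Libraries of knockdown and control with the same number deviated together in 5814 windows with r = −0.0359 for RELA, 0.119 for RELB and 0.243 for NFKB2. For RELA and RELB, knockdown replicate 1 is a library with a scaled sample. These values do not settle whether libraries of the same number were handled together, so the ratios are given with and without the block.

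The share of regions called in 2 or more libraries was 21.2% with an overlap of 0.5 of both peaks, 68.3% in 1 kb bins, 25.2% with the 20000 smallest p-values, 67.8% with a q of at most 0.05 and 41.8 to 44.3% with a library left out. Regions called in all 12 libraries numbered 5 with a q of at most 0.05 and 14 to 20 with a library left out, 20 without knockdown RELA replicate 1. Knockdown-only and control-only counts with an overlap of 0.5 were 5 and 48 (RELA) and 32 and 39 (NFKB2), with 43 control-only for RELB, and 1 kb bins gave RELA 26 knockdown-only. With a q of at most 0.05 RELA had 1 and 1, RELB 3 and 3 and NFKB2 3 and 2, and the regions called in all 4 libraries 6, 10 and 14. With the 20000 smallest p-values they were 4 and 2, 5 and 3, and 5 and 3, and those called in all 4 libraries 12 for RELA and 20 for NFKB2. Without both libraries with a scaled sample, knockdown-only counts were 565 for RELA and 476 for RELB and counts over all remaining libraries 55 and 57. Leaving out each library, where a single library of a condition then suffices, knockdown-only counts ran from 20 to 565 (RELA), 24 to 476 (RELB) and 87 to 490 (NFKB2), and control-only counts from 93 to 561, 72 to 590 and 96 to 605. Counts over all remaining libraries ran from 27 to 55, 27 to 57 and 59 to 66. Under these alternatives the shares over all chromosomes were not counted, apart from leaving out the libraries with a scaled sample. The counts and shares of this paragraph are therefore not shown to be high or low for the spans. Counting each result under each alternative, 198 values stayed the same by the rule used, 62 counts or shares moved, 23 turned and 5 passed 0.05 where the reported test had not. For differences and ratios that rule asked for the same direction and the same side of 0.05, or for direction alone without a p. Their size was not judged, so these results can differ in size and still be among the 198. Size was judged only for counts and shares. Depth limits what can be seen: most members had few fragments, and with 2 libraries a group no difference between conditions could reach 0.05.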
